A study of Oryctolagus cuniculus with 8 samples.

Results

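The visual cycle is the chain of reactions by which the eye restores 11-cis-retinal, the light-absorbing group of the opsins, after light has turned it to the all-trans form. Photoreceptors reduce the spent chromophore to retinol and pass it to the retinal pigment epithelium, where it is esterified, isomerised, oxidised and sent back. Müller glia hold some of the same proteins. Retinol that enters the epithelium from blood, or that is made from β-carotene, feeds the same pool.

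The genes described here were RPE65, LRAT, RDH5, RDH10, RLBP1, RGR, STRA6 and BCO1, chosen by name for their place in the visual cycle and in retinol uptake. All 8 were found among the 25666 genes of the table, of which 19293 were protein-coding. RNA was sequenced from 8 dissected retinas of wild-type male Chinchilla rabbits that were 12 to 16 weeks old at the start of 6 months of feeding. Each diet had 2 retinas. The normal diet (ND) was standard chow, the high-fat diet (HFD) was chow with 10% lard and 0.5% cholesterol, the high-sucrose diet (HSD) was chow with 40% sucrose, and the high-fat plus high-sucrose diet (HFSD) combined the same amounts of lard and cholesterol with 35% sucrose. The labels do not say whether the 2 retinas of a diet came from separate animals, so p values measure the spread between these retinas only. Values are FPKM, fragments per kilobase of gene scaled to library depth, which can be compared between genes.

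The depths recovered from the FPKM steps ran from 15764577 to 22785832 fragments a library. HSD replicate 2 stood apart from the other retinas by skeletal muscle RNA. MYL1 was at 141 FPKM in that library and at most 0.177 in the other 7, ACTA1 was at 105 against at most 0.707, and CKM was at 57.1 against at most 0.178. Without that retina, the log2 difference between HSD and ND was −2.26 for RPE65, −2.27 for LRAT, −2.43 for RDH5, −1.78 for STRA6, −0.76 for BCO1, −1.03 for RDH10, −1.05 for RLBP1 and −0.16 for RGR, and 7 of the 8 genes passed the lower fold limit described below.

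The 8 genes fell into 2 patterns. RPE65, LRAT, RDH5, STRA6 and, at a low level, BCO1 were lower than on ND in all 6 retinas of HFD, HSD and HFSD. For RPE65, RDH5 and STRA6, the mean of ND was between 4.31 and 10.7 times that of each diet. RLBP1 and RGR, by contrast, overlapped ND on HFD and had their lowest means on HFSD. The HFSD retinas overlapped those of HSD for RGR, and neither gene had an unadjusted p under 0.05 between these 2 diets (limma). RDH10 was intermediate. In the limma model with a mean-variance trend and all 8 libraries, 0 of the 7 genes that passed the filter had an adjusted p under 0.05 in any comparison (Benjamini-Hochberg over 12204 genes), and BCO1 had none in the fit without the filter, so the differences are given as values with their errors.

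**Figure D1:**
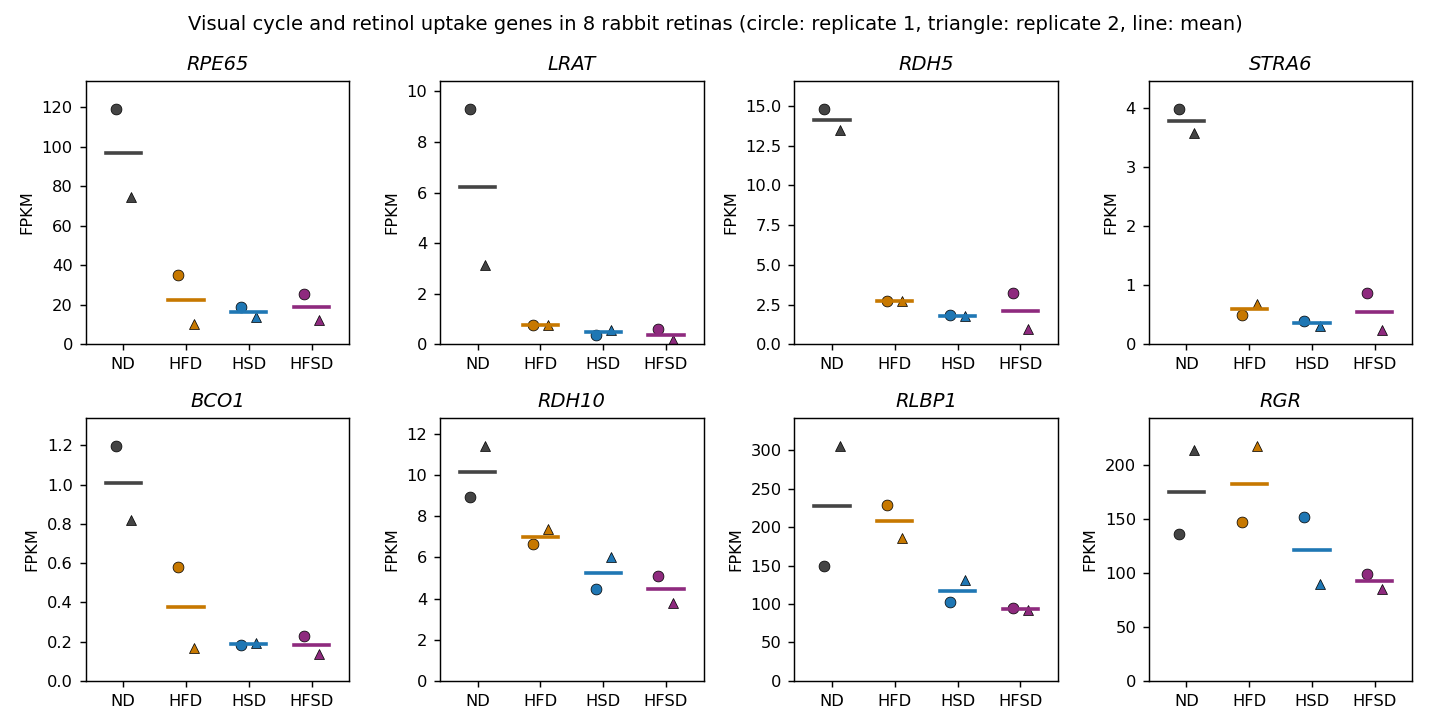
FPKM of the 8 genes in each retina, on linear axes that start at 0, with replicate 1 as a circle, replicate 2 as a triangle and the mean of the diet as a line. The 2 ND retinas lie above all 6 others for RPE65, LRAT, RDH5, STRA6, BCO1 and RDH10, while RLBP1 and RGR of HFD overlap ND.

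RPE65 encodes the isomerase that turns all-trans-retinyl ester to 11-cis-retinol, the defining enzyme of the pigment epithelium. It was at 119 and 74.6 FPKM on ND, at 34.8 and 10.1 on HFD, at 18.9 and 13.7 on HSD and at 25.6 and 12.1 on HFSD. The lowest ND retina was thus above the highest retina of any other diet. The values rested on 2334 to 4116 fragments on ND and on 325 to 1230 in the other diets, so that counting error is small beside the spread between retinas. On log2(FPKM + 1), the difference from ND was −2.26 on HFD, −2.48 on HSD and −2.35 on HFSD, each with a standard error of 0.563. The limma adjusted p was 0.907, 0.318 and 0.364. The value on HFD was −3.10 without HFD replicate 1 and −1.41 without HFD replicate 2.

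LRAT, which esterifies retinol and so forms the substrate of RPE65, differed by the widest ratio of the 8 genes between the ND retinas, at 9.29 and 3.13 FPKM. It was at 0.746 and 0.749 FPKM on HFD, at 0.349 and 0.580 on HSD and at 0.609 and 0.155 on HFSD. Every retina of the 3 diets was below 1 FPKM, a level at which adding 1 before the log understates a change. Fragments numbered 891 and 272 in the ND retinas against 12 to 73 in the others. The log2 difference from ND was −1.90 on HFD, −2.16 on HSD and −2.26 on HFSD, with a standard error of 0.409 and limma adjusted p values of 0.758, 0.243 and 0.195. The size depends on which ND retina is used. Without ND replicate 1, the difference was −1.24 on HFD, −1.50 on HSD and −1.60 on HFSD. Without ND replicate 2, it was −2.56 on HFD, −2.82 on HSD and −2.92 on HFSD, with limma adjusted p values of 0.0476 on HSD and 0.0430 on HFSD. In these fits ND is a single retina that is assumed to vary like the retinas of the other diets. Over the 16 alternatives, the adjusted p ran from 0.0476 to 0.617 on HSD and from 0.0430 to 0.817 on HFSD.

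RDH5, the dehydrogenase that oxidises 11-cis-retinol to 11-cis-retinal, was close between the replicates of ND, HFD and HSD. It was at 14.8 and 13.5 FPKM on ND, at 2.72 and 2.73 on HFD, at 1.82 and 1.79 on HSD and at 3.21 and 0.956 on HFSD. The log2 difference from ND was −2.02 on HFD, −2.43 on HSD and −2.40 on HFSD, with a standard error of 0.320. The limma adjusted p was 0.505, 0.0906 and 0.103. The mean of the 3 diets differed from ND by −2.28 on the log2 scale, with a standard error of 0.261 and an adjusted p of 0.0758. The only RDH5 retinas that were far apart were those of HFSD. Without HFSD replicate 1 the adjusted p was 0.0499 on HFD, 0.0155 on HSD and 0.0208 on HFSD, and without HFSD replicate 2 it was 0.0405 on HFD and 0.0125 on HSD. The value for HFSD itself then rests on 1 retina, the lower of the 2, assumed to vary like those of the other diets. Over the 16 alternatives, the adjusted p ran from 0.0405 to 0.882 on HFD, from 0.0125 to 0.450 on HSD and from 0.0208 to 0.372 on HFSD. The size on HFD and HSD without either HFSD retina was the same in these fits, and only the estimate of spread differed.

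STRA6, the membrane receptor that takes up retinol from its blood carrier RBP4, was at 3.97 and 3.57 FPKM on ND. It was at 0.493 and 0.688 FPKM on HFD, at 0.388 and 0.315 on HSD and at 0.864 and 0.237 on HFSD. Fragments numbered 229 and 186 in the ND retinas and 11 to 58 in the rest. The log2 difference from ND was −1.59, −1.82 and −1.65 on HFD, HSD and HFSD, with a standard error of 0.247 and limma adjusted p values of 0.505, 0.103 and 0.152. For the mean of the 3 diets it was −1.68 with a standard error of 0.202 and an adjusted p of 0.0779. Every retina of the 3 diets was below 1 FPKM, where the added 1 understates a change. Over the 16 alternatives, the difference ran from −2.70 to −1.50 on HFD, −3.36 to −1.76 on HSD and −2.87 to −1.35 on HFSD.

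BCO1, which cleaves β-carotene to retinal, was the lowest of the 8 genes. It was at 1.20 and 0.821 FPKM on ND, at 0.582 and 0.168 on HFD, at 0.184 and 0.195 on HSD and at 0.228 and 0.136 on HFSD. Only 1 library reached 1 FPKM, so BCO1 did not pass the filter on low values and was fitted without it. The fragments numbered 153 and 95 on ND, 76 and 20 on HFD, 19 and 22 on HSD and 34 and 14 on HFSD. The log2 difference from ND was −0.56, −0.75 and −0.76, with a standard error of 0.172 and limma adjusted p values of 0.964, 0.531 and 0.511. With 1 library left out at a time, the difference on HFD ran from −0.78 to −0.34. Without the added 1, the ND mean was 2.69 times the HFD mean, 5.32 times the HSD mean and 5.54 times the HFSD mean.

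RDH10 encodes an all-trans-retinol dehydrogenase found in pigment epithelium and in Müller glia. It was at 8.91 and 11.4 FPKM on ND, at 6.67 and 7.36 on HFD, at 4.45 and 6.04 on HSD and at 5.11 and 3.79 on HFSD. All 6 retinas were below both ND retinas, but by less than for RPE65. The log2 difference was −0.47 on HFD, −0.84 on HSD and −1.04 on HFSD, with a standard error of 0.200 and limma adjusted p values of 0.998, 0.348 and 0.222. With 1 library left out at a time, the difference on HFD ran from −0.63 to −0.31.

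RLBP1 encodes CRALBP, the binding protein for 11-cis-retinoids in both pigment epithelium and Müller glia. It was at 150 and 305 FPKM on ND, at 229 and 186 on HFD, at 102 and 131 on HSD and at 95.01 and 92.6 on HFSD. The HFD retinas lay between those of ND, and all 4 retinas with sucrose were below all 4 without it, an order found for 6.48% of the genes tested and for LRAT and RDH10 as well. The log2 difference from ND was −0.05 on HFD, −0.88 on HSD and −1.18 on HFSD, with a standard error of 0.307 and limma adjusted p values of 0.998, 0.589 and 0.410. Without ND replicate 1 the difference was −1.39 on HSD and −1.69 on HFSD, and without ND replicate 2 it was −0.37 and −0.67. The sign on HFD depended on the retina left out, at 0.46 without ND replicate 2 and −0.56 without ND replicate 1.

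RGR, an opsin that turns all-trans-retinal to the 11-cis form in light, is likewise made by pigment epithelium and Müller glia. It was at 136 and 213 FPKM on ND, at 147 and 218 on HFD, at 152 and 89.6 on HSD and at 98.8 and 85.3 on HFSD. Both HFSD retinas were below both ND retinas, whereas HFD and HSD overlapped ND. The log2 difference was 0.07 on HFD, −0.54 on HSD and −0.88 on HFSD, with a standard error of 0.318 and limma adjusted p values of 0.998, 0.770 and 0.564. On HSD the difference was −0.92 without HSD replicate 1, −0.16 without HSD replicate 2, −0.86 without ND replicate 1 and −0.21 without ND replicate 2. On HFSD it was −1.21 without ND replicate 1 and −0.56 without ND replicate 2. RGR overlaps LRIT1 in the RefSeq annotation of rabbit (mOryCun1.1), and reads of overlapping genes may not have been told apart. LRIT1 was at 82.0 to 122 FPKM over the 8 retinas.

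**Figure D2:**
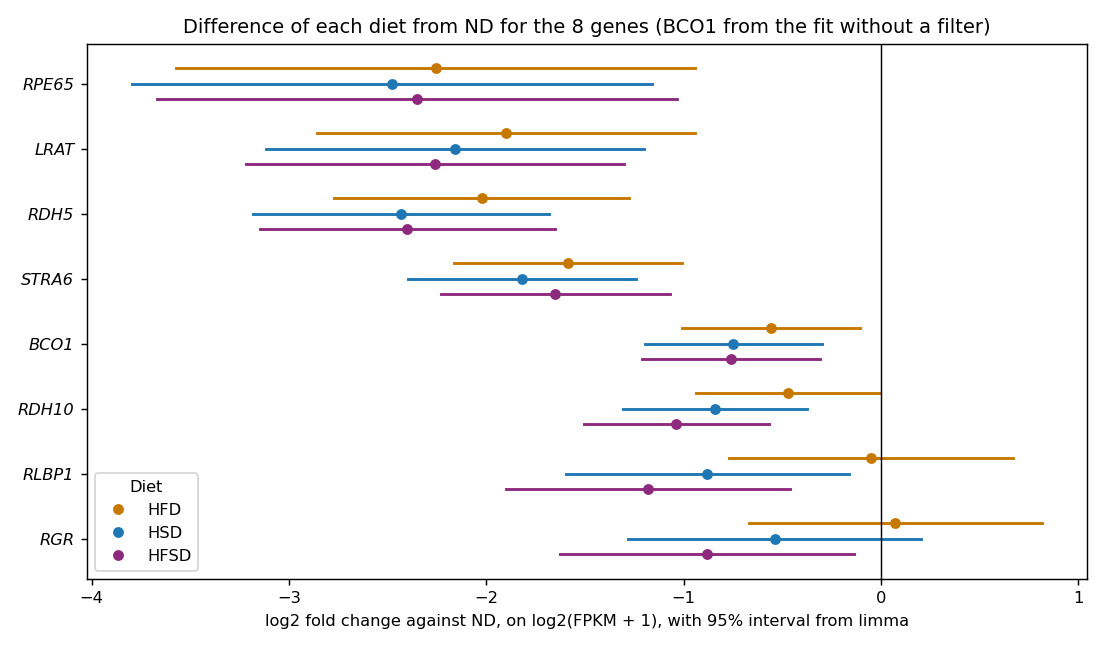
Difference of HFD, HSD and HFSD from ND for each gene, as log2 fold change on log2(FPKM + 1) with its 95% interval from limma, unadjusted (2 retinas a diet). The intervals of RPE65, LRAT, RDH5, RDH10, STRA6 and BCO1 lie below 0 in all 3 diets, that of RLBP1 includes 0 on HFD, and that of RGR includes 0 on HFD and HSD.

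Counted over the list, 5 of the 7 genes tested were lower on HFD than on ND at an unadjusted p under 0.05, 6 on HSD and 7 on HFSD, where 2.51%, 4.51% and 4.37% of all genes tested were. At an adjusted p under 0.05 the count was 0 of 7 in each, against 1, 7 and 2 of the 12204 genes (0.00819%, 0.0574% and 0.0164%). Voom on the recovered fragments also called 0 of 7 in each diet, but called RDH5 and STRA6 for the mean of the 3 diets, both with an adjusted p of 0.0423, in a fit that called 11 of 12204 genes. Over 15 alternatives the adjusted p of that comparison ran from 0.00496 to 0.308 for RDH5 and from 0.0423 to 0.302 for STRA6. In the limma model with a trend, 0 of the 7 genes and 0.0246% of all genes were called in that comparison, while 6 of the 7 genes and 3.08% of all genes tested were lower at an unadjusted p under 0.05. The study named several of these genes from these same libraries, so the counts are not independent evidence of the direction. BCO1 was added in the fit without the filter, where the median log2 difference of all 8 genes was −1.07 on HFD, −1.35 on HSD and −1.42 on HFSD, and the median over all 19293 protein-coding genes was 0.

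The fold limit of the study, applied here to the mean of the 2 retinas of a diet since its formula does not say how retinas were combined, asks for a ratio of (FPKM + 1) to that of ND below 0.65. It was passed by 4 of the 8 genes on HFD, by 7 on HSD and by 8 on HFSD, where 0.809%, 2.42% and 2.4% of the protein-coding genes passed it. The upper limit was passed by 0 of the 8, against 0.949%, 1.53% and 1.03%. RPE65, LRAT, RDH5 and STRA6 passed the lower limit in all 3 diets, as did 58 protein-coding genes (0.301%). Just outside the limit were BCO1 on HFD, with a ratio of 0.684, and RGR on HSD, with 0.695. All 6 retinas of the 3 diets lay below both ND retinas for 6 of the 8 genes, as against 2.37% of the protein-coding genes. The 3 diets share their ND retinas, so these counts are not separate observations.

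The diets were also compared with each other. In these comparisons limma called 0 of the 7 genes at an adjusted p under 0.05 (0.041% of genes were called between HSD and HFD, 0.00819% between HFSD and HFD and 0.0% between HFSD and HSD), and at an unadjusted p under 0.05, 1 of the 7 was lower on HSD than on HFD, 3 on HFSD than on HFD and 0 on HFSD than on HSD (6.58%, 7.17% and 1.52% of genes). The first count was 0 without HFD replicate 1 and 2 without either HFSD replicate. The second was 1 without HFD replicate 2 or HFSD replicate 2 and 4 without HFSD replicate 1, and the third was 1 without HFSD replicate 1. For RPE65, the log2 difference between HSD and HFD was −0.22, with a 95% interval of −1.54 to 1.097. Between HFSD and HFD it was −0.10 (−1.41 to 1.22). For RDH5 these differences were −0.41 (−1.16 to 0.34) and −0.38 (−1.12 to 0.37), and for STRA6 −0.23 (−0.81 to 0.35) and −0.06 (−0.64 to 0.51). Some of these signs turned when a library was left out. For RPE65 the values were 0.63 and 0.75 without HFD replicate 1 and −1.07 and −0.94 without HFD replicate 2, and between HFSD and HFD those of RDH5 and STRA6 were 0.18 and 0.23 without HFSD replicate 2. With all libraries, the intervals include 0 and also differences of more than 0.5 in size, so a further difference between the diets was not detectable and is not shown to be absent. RLBP1 had a difference of −0.83 (−1.55 to −0.11) between HSD and HFD and of −1.13 (−1.85 to −0.41) between HFSD and HFD, with limma adjusted p values of 0.331 and 0.223. These were −1.004 to −0.65 and −1.28 to −0.98 over the libraries left out. RGR differed by −0.95 (−1.70 to −0.21) between HFSD and HFD, with an adjusted p of 0.263, and by −1.24 to −0.67 over the libraries left out.

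The effect of sucrose, as the mean of HSD and HFSD less the mean of ND and HFD, was below 0 for all 7 genes tested at an unadjusted p under 0.05, where 9.16% of genes tested were. None reached an adjusted p of 0.05 (limma), while 42 of 12204 genes did (0.344%). That number was 4 without HSD replicate 2, the library with muscle RNA, 9 without HFD replicate 2, 13 to 16 without HFD replicate 1 or either HFSD replicate, and 72 and 82 without ND replicate 2 and 1. The effect was −1.40 with a standard error of 0.226 for RDH5 (limma adjusted p = 0.0642), −1.005 with 0.217 for RLBP1 (0.102), −0.70 with 0.141 for RDH10 (0.0954) and −0.75 with 0.225 for RGR (0.170). For RPE65, LRAT and STRA6 it was −1.29, −1.26 and −0.94. The effect averages the HSD difference from ND and the HFSD difference from HFD. For RPE65, RDH5 and STRA6 the former was −2.48, −2.43 and −1.82. The latter, given above, had intervals that include 0, so for these genes the average is not shown for sucrose added to fat. The interaction of fat and sucrose compares the HFSD difference with the sum of those of HFD and HSD. For LRAT, RDH5 and STRA6, those differences added together would put HFSD below 0 on log2(FPKM + 1), a scale that cannot go below 0, so that a value above 0 was fixed by the scale and nothing is read from it. It was 2.38 with a standard error of 0.796 for RPE65, −0.25 with 0.435 for RLBP1 and −0.42 with 0.449 for RGR, each with a limma adjusted p of 0.999. With 1 library left out at a time, it ran from 1.53 to 3.23 for RPE65 (without HFD replicate 2 and 1) and from −0.79 to −0.04 for RGR (without HSD replicate 2 and 1), and it was 0.26 for RLBP1 without ND replicate 1.

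Ratios within a library show how the genes moved against each other. RDH5 was 0.124 and 0.181 times RPE65 on ND and 0.0780 to 0.271 times in the other diets, and STRA6 was 0.0334 and 0.0478 times RPE65 on ND and 0.0141 to 0.0683 times in the others. These ranges overlap. RLBP1 was 1.26 and 4.10 times RPE65 on ND and 3.72 to 18.5 times in the other diets, the lowest being HFSD replicate 1 and the highest HFD replicate 2, so that these ranges also overlap. RGR was 1.14 and 2.86 times RPE65 on ND and 3.86 to 21.6 times in the 6 other retinas, with no overlap. RPE65 made up 26.9% and 11.9% of the summed FPKM of the 8 genes on ND and 2.37% to 11.1% in the others. Set against GLUL, the glutamine synthetase of Müller glia, RLBP1 was between 0.101 and 0.148 times in all 8 retinas.

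**Figure D3:**
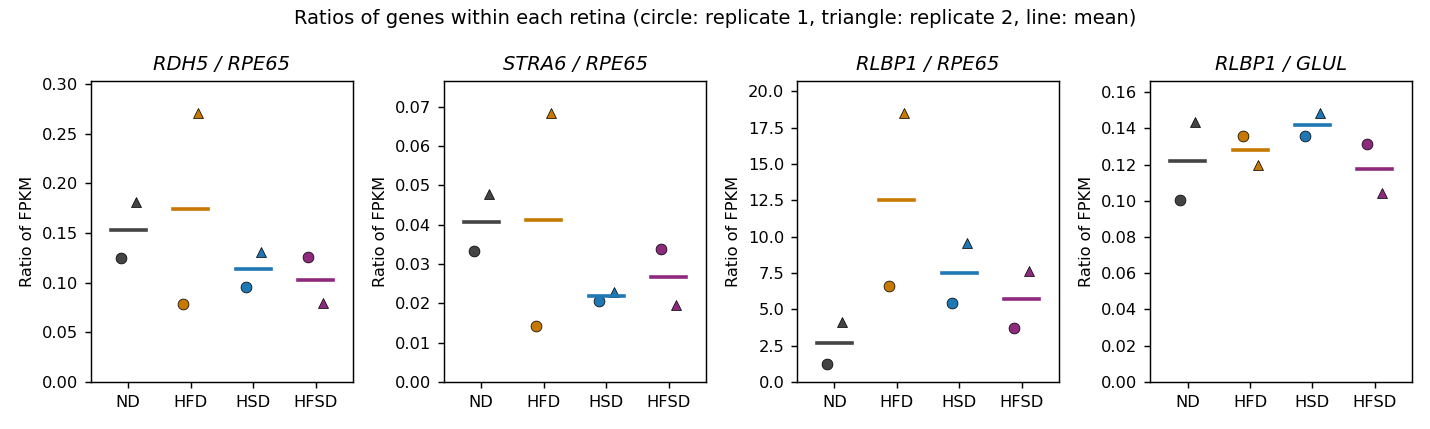
Ratio of FPKM between genes within each retina, with replicate 1 as a circle, replicate 2 as a triangle and the mean as a line, on linear axes that start at 0. RDH5 and STRA6 over RPE65 overlap between ND and the other diets, RLBP1 over RPE65 is highest on HFD replicate 2, and RLBP1 over GLUL stays between 0.101 and 0.148.

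The genes most like RPE65 were sought by the mean absolute difference of log2(FPKM + 1), centred on each gene's mean, over 8 libraries and 9876 named genes. This is a description of libraries that share their ND retinas and their makeup. The nearest was RDH5, with a mean difference of 0.359, followed by the organic anion transporter SLCO1A2 with 0.400, LRAT with 0.444, STRA6 with 0.460 and the thyroxine and retinol-binding protein carrier TTR with 0.500. The next were RAB27A, PMEL, DUSP6, COL8A1 and CIDEA, between 0.513 and 0.552. RAB27A moves melanosomes and PMEL forms their fibrils. RDH10 was at rank 46, RLBP1 at 97 and RGR at 724, and BCO1, below the filter, was not ranked. For RLBP1 the nearest were SELENBP1 with 0.112, STOM with 0.120, the cholesterol carrier NPC2 with 0.143, transferrin (TF) with 0.152 and GLUL with 0.170, and RPE65 was at rank 9562. The same difference of 0.773 between RPE65 and RLBP1 thus gave rank 97 from RPE65 and rank 9562 from RLBP1. The measure counts the size of a change as well as its order over the retinas, so these are not ranks of pattern alone.

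Other markers of the pigment epithelium were in part lower beside RPE65. Of 15 markers listed, 12 were found and 8 were tested, and 7 of the 12 (TTR, CLDN19, KRT8, SLC6A20, SLC22A8, MFRP and C1QTNF5) were below both ND retinas in all 6 others. The other 5 (BEST1, SERPINF1, ENPP2, TRPM3 and GPNMB) were not. The summed level of the 12 was 218 and 160 FPKM on ND, 83.9 and 68.9 on HFD, 48.8 and 54.0 on HSD and 57.0 and 41.5 on HFSD. TTR was the largest part in both ND retinas. TTR was at 144 and 88.6 FPKM on ND and at 4.52 to 26.9 in the others. The transporters SLC6A20 and SLC22A8 were at 1.80 to 2.08 and 1.40 to 1.63 FPKM on ND and at 0.107 to 0.393 and 0.118 to 0.489 in the others. MFRP, which shares its locus with C1QTNF5, was at 10.1 to 13.4 FPKM on ND and 2.56 to 4.58 in the others. The cation channel TRPM3 was at 7.20 to 9.29 FPKM on ND, and on HSD and HFSD it was above both ND retinas, with ratios of (mean FPKM + 1) to ND of 1.28 and 1.29. SERPINF1 and ENPP2 overlapped ND on HFD. ENPP2 was below both ND retinas on HSD and HFSD, at ratios of 0.679 and 0.714. SERPINF1 overlapped ND on HSD and was below both ND retinas on HFSD, at a ratio of 0.828. BEST1, the chloride channel of the epithelium's basal side, was near or below 1 FPKM throughout, at 0.438 to 0.517 FPKM on ND and 0.286 to 1.16 in the others. CLDN19 and KRT8 were also low and did not pass the filter. They were at 0.465 to 0.568 and 0.849 to 1.64 FPKM on ND and at 0.0392 to 0.196 and 0.0527 to 0.665 in the others. At an adjusted p under 0.05 (limma), 0 of the 8 were called in each diet, with 4, 5 and 5 lower at an unadjusted p under 0.05. For the sucrose effect 1 of the 8 was called, C1QTNF5, at −1.50 on the log2 scale with a standard error of 0.209 and a limma adjusted p of 0.0437 (0.159 without the filter on low values), and 6 were lower at an unadjusted p under 0.05. The part of these cells' amount in the result was not tested, and in bulk RNA fewer cells of a type and less RNA per cell cannot be told apart.

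Melanin genes, made by the pigment epithelium and by melanocytes of the choroid, were also lower in part. Of 11 listed, 10 were found and 7 tested, and 5 of the 10 (TYRP1, DCT, PMEL, SLC45A2 and OCA2) were below both ND retinas in all 6 others. MLANA and SLC24A5 overlapped ND in every diet, with ratios of (mean FPKM + 1) to ND of 1.28 for MLANA on HFD and of 1.14 for SLC24A5 on HSD, and MLPH was above both ND retinas on HFD at a ratio of 1.15 and below both on HSD and HFSD at 0.795 and 0.866. Their summed level was 62.2 and 77.9 FPKM on ND and 19.2 to 36.1 in the others. TYRP1 was at 13.4 to 23.2 FPKM on ND and at 1.06 to 7.86 in the others. At an adjusted p under 0.05, limma called 0 of the 7 in each diet, and 2, 4 and 4 were lower at an unadjusted p under 0.05. The transcription factors that act in pigment epithelium stood otherwise. The summed level of MITF, TFEC, OTX2, SOX9, LHX2 and PAX6, most of which neurons or glia also express, was 238 and 260 FPKM on ND and 246 to 279 in the others, and 0 of the 6 passed the lower fold limit in any diet. TFEC, at 0.0836 to 0.189 FPKM on ND, could not pass that limit because 1 is added. The sum rested mostly on OTX2 and PAX6, at 81.4 to 104 and 83.6 to 101 FPKM over all retinas, while MITF was at 2.29 to 4.11. The log2 difference of MITF was −0.09 on HFD, 0.05 on HSD and 0.21 on HFSD, each with a standard error of 0.235.

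In the sum of the Müller glia list, all 4 retinas with sucrose lay below the other 4, as they did in 3 of its 9 genes, GLUL, CLU and GPR37. That order was found for 6.48% of the genes tested. The summed level was 3418 and 4509 FPKM on ND, 3973 and 3674 on HFD, 2704 and 2552 on HSD and 2557 and 2648 on HFSD. SLC1A3, KCNJ10 and DKK3 overlapped ND on HSD and HFSD, with ratios of (mean FPKM + 1) to ND of 1.02 and 1.01, 0.980 and 0.964, and 1.17 and 1.117. AQP4, VIM and SOX9 overlapped ND there too, with ratios of 0.514 and 0.716, 0.854 and 0.827, and 1.11 and 0.994. The AQP4 ratio on HSD passed the lower fold limit. GLUL was at 1489 and 2127 FPKM on ND, 1685 and 1551 on HFD, 754 and 883 on HSD and 722 and 890 on HFSD. Its sucrose effect was −1.07 on the log2 scale, with a standard error of 0.156 and a limma adjusted p of 0.0501. Whether these cells carry the RLBP1 values was not tested.

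**Figure D4:**
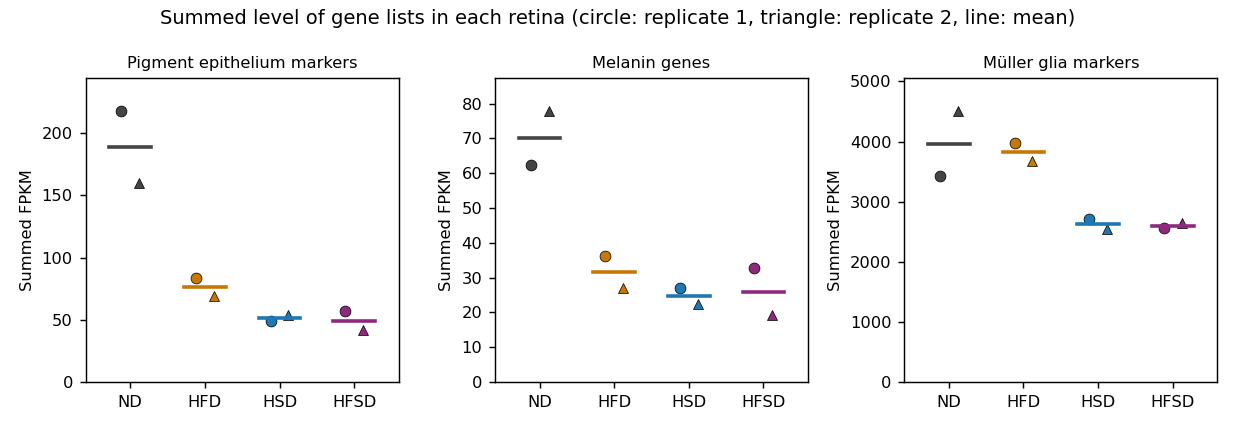
Summed FPKM of the genes of 3 lists in each retina, with replicate 1 as a circle, replicate 2 as a triangle and the mean as a line, on linear axes that start at 0. Pigment epithelium and melanin sums of all 6 retinas on HFD, HSD or HFSD lie below those of ND, while the Müller glia sum is lower only in the 4 retinas with sucrose.

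The photoreceptor side of the cycle differed less. Of 9 genes listed (among them the carrier RBP3, the transporter ABCA4 and retinol dehydrogenases), 7 were found and tested, 0 passed the fold limit in either direction in any diet and 0 were called at an adjusted p under 0.05 (limma). At an unadjusted p under 0.05, 0 were lower on HFD, 0 on HSD and 1 on HFSD. The median log2 difference was −0.15 on HFD, −0.17 on HSD and −0.23 on HFSD. RDH12, which reduces retinal in photoreceptor inner segments, was at 175 to 230 FPKM on ND and 182 to 230 in the others. RDH11 was at 47.9 to 49.3 FPKM on ND and at 35.5 to 47.4 in the others, below both ND retinas in all 6.

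Among retinoid carriers, 7 of 8 listed were found and 5 tested. TTR is given above. RBP4 was at 4.20 to 5.04 FPKM on ND and 4.12 to 7.74 in the others, and CRABP1, which binds retinoic acid, at 117 to 172 and 99.97 to 192. Of 14 genes of carotenoid uptake and other retinol or ester enzymes, 11 were found and 7 tested, and 0 passed the fold limit in either direction. BCO2 (0.171 and 0.697 FPKM on ND), ISX, AWAT2 and DHRS9 were too low on ND for the lower limit to be reached once 1 is added. SCARB1, a carotenoid and lipoprotein receptor, was at 75.3 to 92.9 FPKM on ND and 72.2 to 87.0 in the others. In each of these 2 lists limma called 0 genes at an adjusted p under 0.05 in every diet.

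Markers of cones, fibroblasts and endothelium, other cells that a dissected retina can hold, were summed in the same way. Cone genes were at 530 to 593 FPKM on ND, 452 to 599 on HFD, 867 to 939 on HSD and 771 to 823 on HFSD, and 2 of the 5 tested were called higher for the sucrose effect (limma, adjusted p under 0.05). Fibroblast genes were at 17.8 to 28.4 FPKM on ND and 16.9 to 50.7 in the others, and endothelial genes at 112 to 127 and 100.04 to 146. The sums hide differences between genes. The endothelial sum was mostly KDR, at 75.8 to 131 FPKM over the 8 retinas, and 2 endothelial genes passed the lower fold limit on HSD and 3 on HFSD, CLDN5 and VWF on both and PECAM1 on HFSD. CLDN5 was at 28.01 and 1.03 FPKM on ND, VWF at 3.77 and 0.00648 and PECAM1 at 1.62 and 0.0485, so that these 3 differed widely within ND. COL1A1, COL1A2 and COL3A1 of the fibroblast list passed the lower limit on HFSD, and COL3A1 also on HFD. DCN passed the upper limit on HSD, at a ratio of (mean FPKM + 1) to ND of 4.80, where it was at 1.77 FPKM in replicate 1 and at 16.2 in replicate 2, the library with muscle RNA, which also gave the highest fibroblast sum. The part of these cells in the RPE65, LRAT, RDH5 and STRA6 values was not tested.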

How the data were processed

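RNA of 8 rabbit retinas was sequenced on an Illumina HiSeq from TruSeq libraries. The authors trimmed reads, mapped them with TopHat2, discarded reads with several locations and computed FPKM per gene. The deposited table holds FPKM for each library, and the genome build is not given in the sources used here, so no coordinates are printed. Depth was recovered from the FPKM steps: 99.99% of values above 0 came out whole within 0.01 fragments.

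limma (3.58.1, R 4.3.3) was fitted to log2(FPKM + 1) with a mean-variance trend, in 1 model of 4 diets and 8 libraries, over 12204 protein-coding genes that reached 1 FPKM in 2 or more libraries, and p values were adjusted by Benjamini-Hochberg. Fits with another pseudocount, no filter, other scalings, no trend, voom on the recovered fragments, a replicate block, fewer libraries and each library left out were alternatives. The genes and lists were chosen with earlier results of these data known. Every listed gene may be named, with the 10 genes nearest RPE65 and the 5 nearest RLBP1. MYL1, ACTA1 and CKM were added after their values were seen. Promoter motifs were not searched. Some listed genes and the sum they belong to are not reported here.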

Additional observations from a re-analysis of the deposited data

How the results depend on the processing

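Among differences of single genes from ND, for each diet and the mean of the diets, and their sucrose effects, 581 kept their direction and their side of the threshold, 16 passed it with the same direction and 4 reversed under the alternatives. Outside these, the interaction of RLBP1 reversed to 0.26 without ND replicate 1, and in at least 1 pair of diets the difference reversed for RPE65, LRAT, RDH5, RGR, STRA6 and BCO1 when some libraries were left out, for RPE65 (HFSD against HFD) with rescaled FPKM and for RDH5 (HFSD against HSD) with a pseudocount of 0.1. A call appeared for the mean of the 3 diets with voom (2 genes, RDH5 and STRA6, of 11 called in all) and without a trend (1 gene, STRA6, adjusted p = 0.0476, of 5 in all), and in HSD when only the 4 libraries compared were fitted (1 gene, RDH5, adjusted p = 0.0431, of 3 in all). Leaving out each library in turn, between 0 and 1 genes were called in HFD, HSD and HFSD, for the mean of the 3 diets and for sucrose. The call was RDH5 without HFSD replicate 1 or 2, LRAT without ND replicate 2, and for sucrose RLBP1 without ND replicate 1. Genes called in all were 12 on HSD and 10 on HFSD without ND replicate 2, 4 for sucrose without HSD replicate 2 and 82 without ND replicate 1, and 2, 7 and 4 on HFD, HSD and HFSD without HFSD replicate 1. The median of the 8 genes was −1.84, −2.23 and −2.19 in HFD, HSD and HFSD with a pseudocount of 0.1, −1.38, −1.64 and −1.57 with FPKM rescaled to one sum per library, and −1.59, −1.82 and −1.65 over the 7 genes that passed the filter. Over the left-out libraries it ran from −1.17 to −0.94 in HFD, −1.45 to −1.35 in HSD and −1.59 to −1.26 in HFSD. The direction in HFD reversed for RLBP1, to 0.46 without ND replicate 2 and 0.10 without HFD replicate 2 (lowest −0.56, without ND replicate 1), and for RGR, to −0.25 without ND replicate 1 and −0.21 without HFD replicate 2 (highest 0.40, without ND replicate 2). The cause was not tested. The replicate numbers do not pair the retinas (correlations of deviations from −0.16 to 0.08). With the replicate block, 0 of the 7 genes were called in every comparison, and the genes called in all were 5 in HSD, 4 in HFSD, 1 for the mean of the diets and 25 for sucrose. Depth limits LRAT, STRA6 and BCO1, which rest on at most 76 fragments in each retina of the 3 diets.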
